A study of Mus musculus with 33 samples.

Results

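The genes described here make up a module of 28 genes of cholesterol and fatty acid synthesis, found by gene symbol among the 38899 genes that all 4 deposited expression tables share. All 28 were present in each table. Their levels were followed in 33 RNA sequencing libraries of adult mouse bone marrow, 3 in each of 11 groups, all from C57BL/6 mice of 8 to 12 weeks. Irradiated bone EC and bone EC were endothelial cells (EC) sorted as GFP+ from Cdh5-mTnG mice, which carry a nuclear reporter for cells that express the endothelial cadherin gene Cdh5. The first of these groups received 9 Gy of irradiation and the second no treatment. Vav1 DTX EC and Vav1 control EC are both labelled as Vav1-Cre, R26-DTR and Cdh5-mTnG and as given diphtheria toxin, so that genotype and treatment are the same in the labels. Only the titles and the names of the data columns, Vav1-Cre for the DTX arm and Vav1-Cont for the control arm, tell them apart. Whether the control arm carried Cre is thus uncertain. R26-DTR gives the toxin receptor to cells in which Cre has acted, and the Vav1 promoter is active in blood cells. Apln+ EC came from tamoxifen-treated Apln-CreERT2 R26-mTmG mice, in which cells that express Apln turn green, and diaphysis EC from the femur shaft of untreated Cdh5-mTnG mice. 9Gy1D EC came from Cdh5-mTnG mice given 9 Gy, and Esm1+ EC from tamoxifen-treated Esm1-CreER R26-mTmG mice, in which cells that express Esm1 turn green. The meaning of "1D" is not spelled out in the labels, and no time after irradiation is given. LSK (Lin- Sca1+ cKit+ cells, which include the blood stem cells), Lin- (marrow depleted of mature lineages) and BMC (whole marrow) were taken from the femur and tibia of untreated wildtype mice.

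Cells build cholesterol from acetyl-CoA in a long chain of enzyme steps. The mevalonate arm makes isoprenoid units, squalene synthase commits them to sterols, and a series of later enzymes turns the first sterol ring into cholesterol. Fatty acids are built from the same acetyl-CoA, then lengthened and given double bonds. Transcription of both branches is driven by the SREBP factors, encoded by Srebf1 and Srebf2, which the endoplasmic reticulum protein INSIG1 holds back when sterols are plentiful. SREBP2 acts mostly on the cholesterol genes and SREBP1 mostly on the fatty acid genes. By role, the module held 8 genes of the mevalonate and isoprenoid arm, 10 of the sterol arm, 6 of the fatty acid arm and 4 regulators or carriers.

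The libraries held 1.55 to 12.29 M reads on genes, fewest in LSK (1.55 to 1.87 M) and most in Vav1 DTX EC (9.8 to 12.29 M). The sorted endothelial groups were not pure. The summed level of 10 pan-endothelial genes ranged from 937 to 5550 FPKM (fragments per kilobase of gene, scaled for depth) in the 8 endothelial groups, against 30.7 to 95.7 FPKM in LSK, Lin- and BMC. The summed level of 8 neutrophil genes was 46600 to 47300 FPKM in bone EC and 77800 to 84700 FPKM in Esm1+ EC, against 83400 to 111000 FPKM in BMC. In such bulk samples, fewer cells of a type and less RNA per cell cannot be told apart. Apln+ replicate 1 stood apart from the other libraries of its group, as did Vav1 DTX replicate 2 and Lin- replicate 3, and the counts are also given without them. Esm1+ replicates 1 and 2 were closer to each other than any other pair, with a chi-square per gene between their reads of 1.39. Between Esm1+ replicate 3 and each of them it was 26.97 and 28.53. The close pair differed by more than sampling noise and was kept as 2 libraries. They may still stem from the same sample, so calls are also given with the 2 averaged. The labels do not say that replicates came from separate animals, so the p-values measure only the spread between these libraries, which may be technical.

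Of the 28 genes, 22 have a promoter window in the RefSeq table used here (GRCm38.p6, from 250 bases before to 50 bases after the transcription start). A sterol regulatory element with the letters TCACNCCAC, the kind of site that SREBPs bind, was searched on both strands and lay in 1 of the 22, that of Hmgcs1, against 1.44% of the 27025 genes of the table. CCAAT, the box bound by the factor NF-Y, which works beside SREBPs at many sterol genes, lay in 19 of the 22 (86.4%), against 41.1% of all genes. GGGCGG, a GC box, lay in 17 of the 22 (77.3%), against 38.2% of all genes. These shares describe letters, not binding. The 250 bases before the start are printed for Insig1 (chr5:28071162-28071411, plus strand), Cyp51 (chr5:4104698-4104947, minus strand) and Srebf2 (chr15:82147019-82147268, plus strand), the 3 genes with the most calls in the comparisons below among those with a window, and for Hmgcs1 (chr13:119690101-119690350, plus strand), the only 1 with the sterol element, which was added after the search was seen. Each runs 5′ to 3′ along its gene, in lower case, with matches to TCACNCCAC and to CCAAT or its reverse complement in capitals.
Insig1: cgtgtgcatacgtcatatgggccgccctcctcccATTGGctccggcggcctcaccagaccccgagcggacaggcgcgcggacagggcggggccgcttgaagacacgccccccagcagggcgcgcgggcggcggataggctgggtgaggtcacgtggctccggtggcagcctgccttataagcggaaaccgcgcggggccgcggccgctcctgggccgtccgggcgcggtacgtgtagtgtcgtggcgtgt
Cyp51: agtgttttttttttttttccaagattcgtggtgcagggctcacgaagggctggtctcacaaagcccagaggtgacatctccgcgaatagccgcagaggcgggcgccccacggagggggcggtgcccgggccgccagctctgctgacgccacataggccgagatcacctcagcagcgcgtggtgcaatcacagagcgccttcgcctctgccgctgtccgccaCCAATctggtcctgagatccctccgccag
Srebf2: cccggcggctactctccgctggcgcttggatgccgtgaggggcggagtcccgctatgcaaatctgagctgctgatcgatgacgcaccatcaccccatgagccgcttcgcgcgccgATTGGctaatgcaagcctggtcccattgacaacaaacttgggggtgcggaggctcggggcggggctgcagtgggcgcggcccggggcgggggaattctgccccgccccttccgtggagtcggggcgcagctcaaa
Hmgcs1: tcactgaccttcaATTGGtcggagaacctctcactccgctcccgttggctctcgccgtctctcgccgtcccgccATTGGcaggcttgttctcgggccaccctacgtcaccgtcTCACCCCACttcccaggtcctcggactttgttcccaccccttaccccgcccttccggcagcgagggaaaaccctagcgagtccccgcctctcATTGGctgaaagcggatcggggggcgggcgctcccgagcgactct
Insig1, Cyp51 and Srebf2 each hold 1 CCAAT box, whose leftmost base lies 216, 29 and 135 bases before the start in that order. Hmgcs1 holds 3 before the start, at 237, 176 and 45 bases, and the sterol element between them at 137 bases.

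Levels were compared over the 11 groups as FPKM, a unit per gene length, so that genes can be set beside each other. The 4 tables were normalized separately, and levels from different tables are described with no test. Acly, which makes cytosolic acetyl-CoA from citrate, ranked between 1 and 3 by mean among the 28 genes in every group, with group means from 32.3 FPKM in diaphysis EC to 86.8 FPKM in Esm1+ EC. Fdps, the farnesyl diphosphate synthase, ranged from 16.0 FPKM in irradiated bone EC to 124 FPKM in Vav1 DTX EC, the highest group mean of any member. At the low end, Tm7sf2, a sterol reductase, averaged at most 1.01 FPKM in any group. Lss, the lanosterol synthase that closes the sterol ring, had its highest mean, 2.74 FPKM, in Esm1+ EC.

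**Figure D1:**
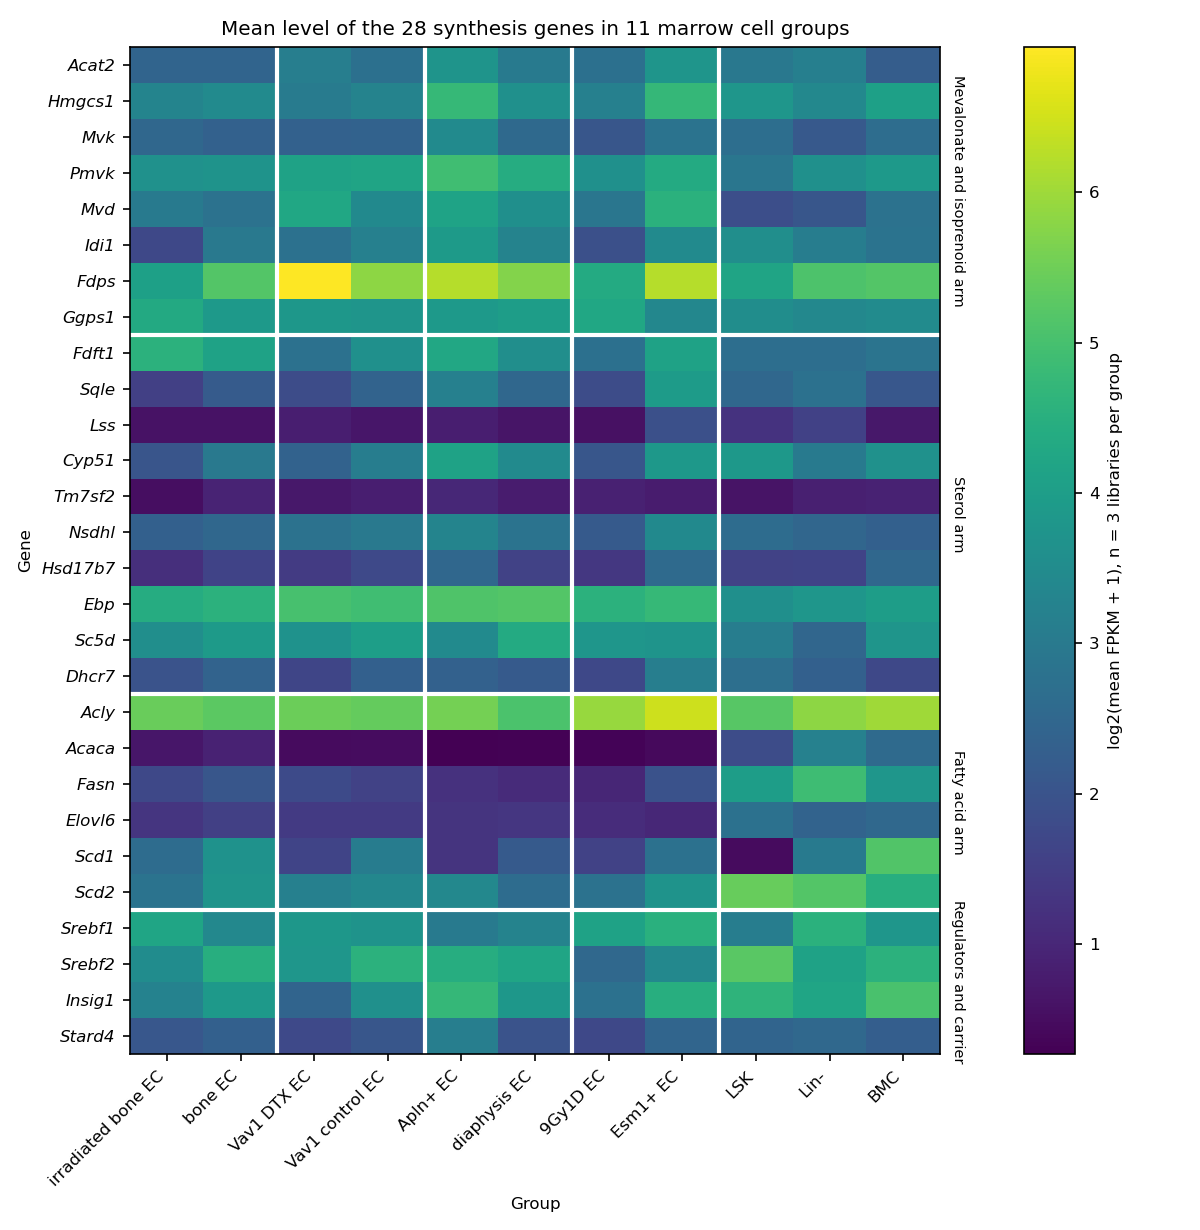
Mean level of each of the 28 genes (rows, by role) in the 11 groups (columns), as log2(mean FPKM + 1) of 3 libraries; white vertical lines part the pairs that were compared and the blood groups. Esm1+ EC and Apln+ EC held the highest mean of 8 and 7 genes, a count not made over all genes, and Scd1 was at 34.3 FPKM in BMC but 0.371 FPKM in LSK.

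Esm1+ EC had the highest mean of the 11 groups for 8 members and Apln+ EC for 7. Among the 8 endothelial groups alone, 9Gy1D EC had the lowest mean for 8 members and irradiated bone EC for 7. Such counts were not made over all genes, so they do not set the members apart. The widest ranges were those of 3 fatty acid genes. Scd1, a stearoyl-CoA desaturase that puts a double bond into fatty acids, differed 92.6-fold between BMC (34.3 ± 9.51 FPKM, SD, n = 3) and LSK (0.371 ± 0.227 FPKM, SD, n = 3, from 13 reads in all), which were made with different library kits. Acaca, the acetyl-CoA carboxylase that starts fatty acid synthesis, differed 40.2-fold between Lin- (8.3 FPKM) and Apln+ EC (0.207 FPKM). Fasn, the fatty acid synthase, differed 29.1-fold between Lin- (28.7 FPKM) and 9Gy1D EC (0.985 FPKM). In these last 2 cases the groups differ in table and library kit as well as in cell type, which cannot be told apart. The narrowest range was that of Ggps1, which makes geranylgeranyl diphosphate for protein anchors, at 2.07-fold between irradiated bone EC and Esm1+ EC.

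Positions from GENCODE vM21 (GRCm38) were found for all 28 genes, and exons of 11 of them overlap another gene. The exons of Fdft1 (squalene synthase, chr14:63145150-63179578, minus strand) overlap Ctsb on the other strand, a cathepsin gene abundant in macrophages, and those of Cyp51 (chr5:4081145-4104746, minus strand) overlap Akap9. Fdps (chr3:89093588-89101959, minus strand) overlaps the predicted gene Gm43738 on the same strand. Whether reads were counted by strand is not given in the sources used here, so reads of such overlaps are uncertain. Scd1 and Scd2 are close paralogs on chromosome 19, and reads from stretches they share may have been split between them.

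The first comparison asked how endothelial cells differed after 9 Gy of irradiation. In irradiated bone EC, 8 members fell and 2 rose relative to bone EC, of 25 that passed a filter on low values (1 FPKM or more in 3 or more of the 6 libraries compared). The genes that fell were Idi1, Fdps, Sqle, Cyp51, Scd1, Scd2, Srebf2 and Insig1, and those that rose were Fdft1 and Srebf1. A call is an adjusted p below 0.05 over all 13044 genes tested, and 41.9% of those genes were called, 19.4% lower and 22.5% higher. The 10 calls among 25 members are near the share for all genes. The 3 irradiated libraries lay wholly above those of bone EC for 2 members and wholly below for 10, where 54.2% of all genes did not overlap. The median difference of the members was -0.25, against 0.06 for all genes (log2(FPKM + 1) scale). With TPM scaling, which moved the median of all genes to 0.29, 5 members were called lower and 2 higher, and 67.2% of all calls were higher, against 53.8% without it. The 15 members not called had differences between -0.45 (Hsd17b7) and 0.47 (Ggps1). Lss, Tm7sf2 and Acaca did not pass the filter.

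Both isoprenoid genes that fell act in sequence. Idi1, the isopentenyl diphosphate isomerase, had 2.41, 2.92 and 1.55 FPKM in irradiated bone EC, against 6.94, 6.25 and 7.39 FPKM in bone EC. Its difference was -1.27 ± 0.19 (SE, adjusted p = 0.002), and every irradiated library lay below every bone EC library. Fdps, the next enzyme, had 20.2, 18 and 9.62 FPKM in irradiated bone EC, against 30.4, 35.3 and 40 FPKM in bone EC, a difference of -1.15 ± 0.27 (SE, adjusted p = 0.013). The earlier steps did not pass the test: Hmgcs1, which condenses the first HMG-CoA, averaged 8.8 ± 0.85 FPKM in irradiated bone EC and 10.2 ± 1.21 FPKM in bone EC (SD, n = 3 each; difference -0.19).

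In the sterol arm, Cyp51, the lanosterol demethylase, had 3.53, 3.19 and 2.48 FPKM in irradiated bone EC, against 8.61, 5.34 and 6.49 FPKM in bone EC, a difference of -0.93 ± 0.2 (SE, adjusted p = 0.0091). Sqle, the squalene epoxidase, averaged 1.9 FPKM in irradiated bone EC, against 3.54 FPKM in bone EC, a difference of -0.65. Fdft1 went the other way, with 22.3, 22.3 and 23.6 FPKM in irradiated bone EC, against 15.4, 16.2 and 18 FPKM in bone EC (difference 0.44 ± 0.12, SE, adjusted p = 0.025). The overlapping Ctsb averaged 816 ± 35.2 FPKM in irradiated bone EC and 388 ± 50.5 FPKM in bone EC (SD, n = 3 each), and its part in the Fdft1 value was not tested. The Fdft1 call was lost in 7 of 16 alternatives, with adjusted p up to 0.1.

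The SREBP genes moved apart. Srebf2 had 11.4, 10.7 and 9.36 FPKM in irradiated bone EC, against 23.5, 19.7 and 20 FPKM in bone EC, a difference of -0.94 ± 0.14 (SE, adjusted p = 0.0018). Srebf1 had 13.7, 18.1 and 20.7 FPKM in irradiated bone EC, against 9.27, 10.7 and 8.71 FPKM in bone EC, a difference of 0.79 ± 0.18 (SE, adjusted p = 0.011). Neither pair of groups overlapped, and both calls held in each of the 16 alternatives run. Insig1 averaged 8.45 ± 0.496 FPKM in irradiated bone EC and 13.6 ± 2.34 FPKM in bone EC (SD, n = 3 each; difference -0.61).

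Both desaturases fell. Scd1 had 3.92, 4.11 and 7.78 FPKM in irradiated bone EC, against 16, 10.6 and 9 FPKM in bone EC (difference -1.05 ± 0.29, SE, adjusted p = 0.023). Scd2 averaged 6.01 ± 1.17 FPKM in irradiated bone EC and 12.3 ± 1.82 FPKM in bone EC (SD, n = 3 each; difference -0.93). The carbon supply gene Acly was not called, at 42.2 ± 5.89 FPKM in irradiated bone EC and 37.9 ± 7.1 FPKM in bone EC (SD, n = 3 each).

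Summed marker levels moved with this comparison. The 8 neutrophil genes summed to 988 to 4410 FPKM in irradiated bone EC, against 46600 to 47300 FPKM in bone EC, and the 6 proliferation genes to 14.8 to 36.9 FPKM in irradiated bone EC, against 166 to 187 FPKM in bone EC. The 6 erythroid genes summed to 196 to 565 FPKM in irradiated bone EC, against 25700 to 27300 FPKM in bone EC. The 10 pan-endothelial genes summed to 4160 to 5550 FPKM in irradiated bone EC, against 1420 to 1860 FPKM in bone EC, and the 6 monocyte and macrophage genes to 1210 to 1470 FPKM in irradiated bone EC, against 598 to 629 FPKM in bone EC. No marker of these 5 lists was at 0 in every library of either group, and their part in the changes of the members was not tested. Without irradiated replicate 2 or without bone EC replicate 1, 6 of the 10 calls were left, and 33.7% of all genes were called in either case. Idi1, Fdps, Cyp51, Scd2, Srebf1 and Srebf2 were called in every alternative that tested them.

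Of the genes that move sterols or sense them, 8 rose and 2 fell in irradiated bone EC among 14 tested of 15. Abcg1, a cholesterol exporter, averaged 55.5 ± 3.85 FPKM in irradiated bone EC and 19.1 ± 2.38 FPKM in bone EC (SD, n = 3 each; difference 1.49, adjusted p = 0.00038). Nr1h3, the oxysterol receptor LXR alpha, averaged 12.2 ± 0.833 FPKM in irradiated bone EC and 4.83 ± 1.02 FPKM in bone EC (SD, n = 3 each; difference 1.19, adjusted p = 0.0015). Soat1, which stores cholesterol as esters, fell by 0.59. Of the other fatty acid genes, 5 rose and 2 fell among 13 tested of 14: Elovl5, an elongase of polyunsaturated fatty acids, rose by 1.16, and Mid1ip1, an activator of acetyl-CoA carboxylase, fell by 1.82.

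**Figure D2:**
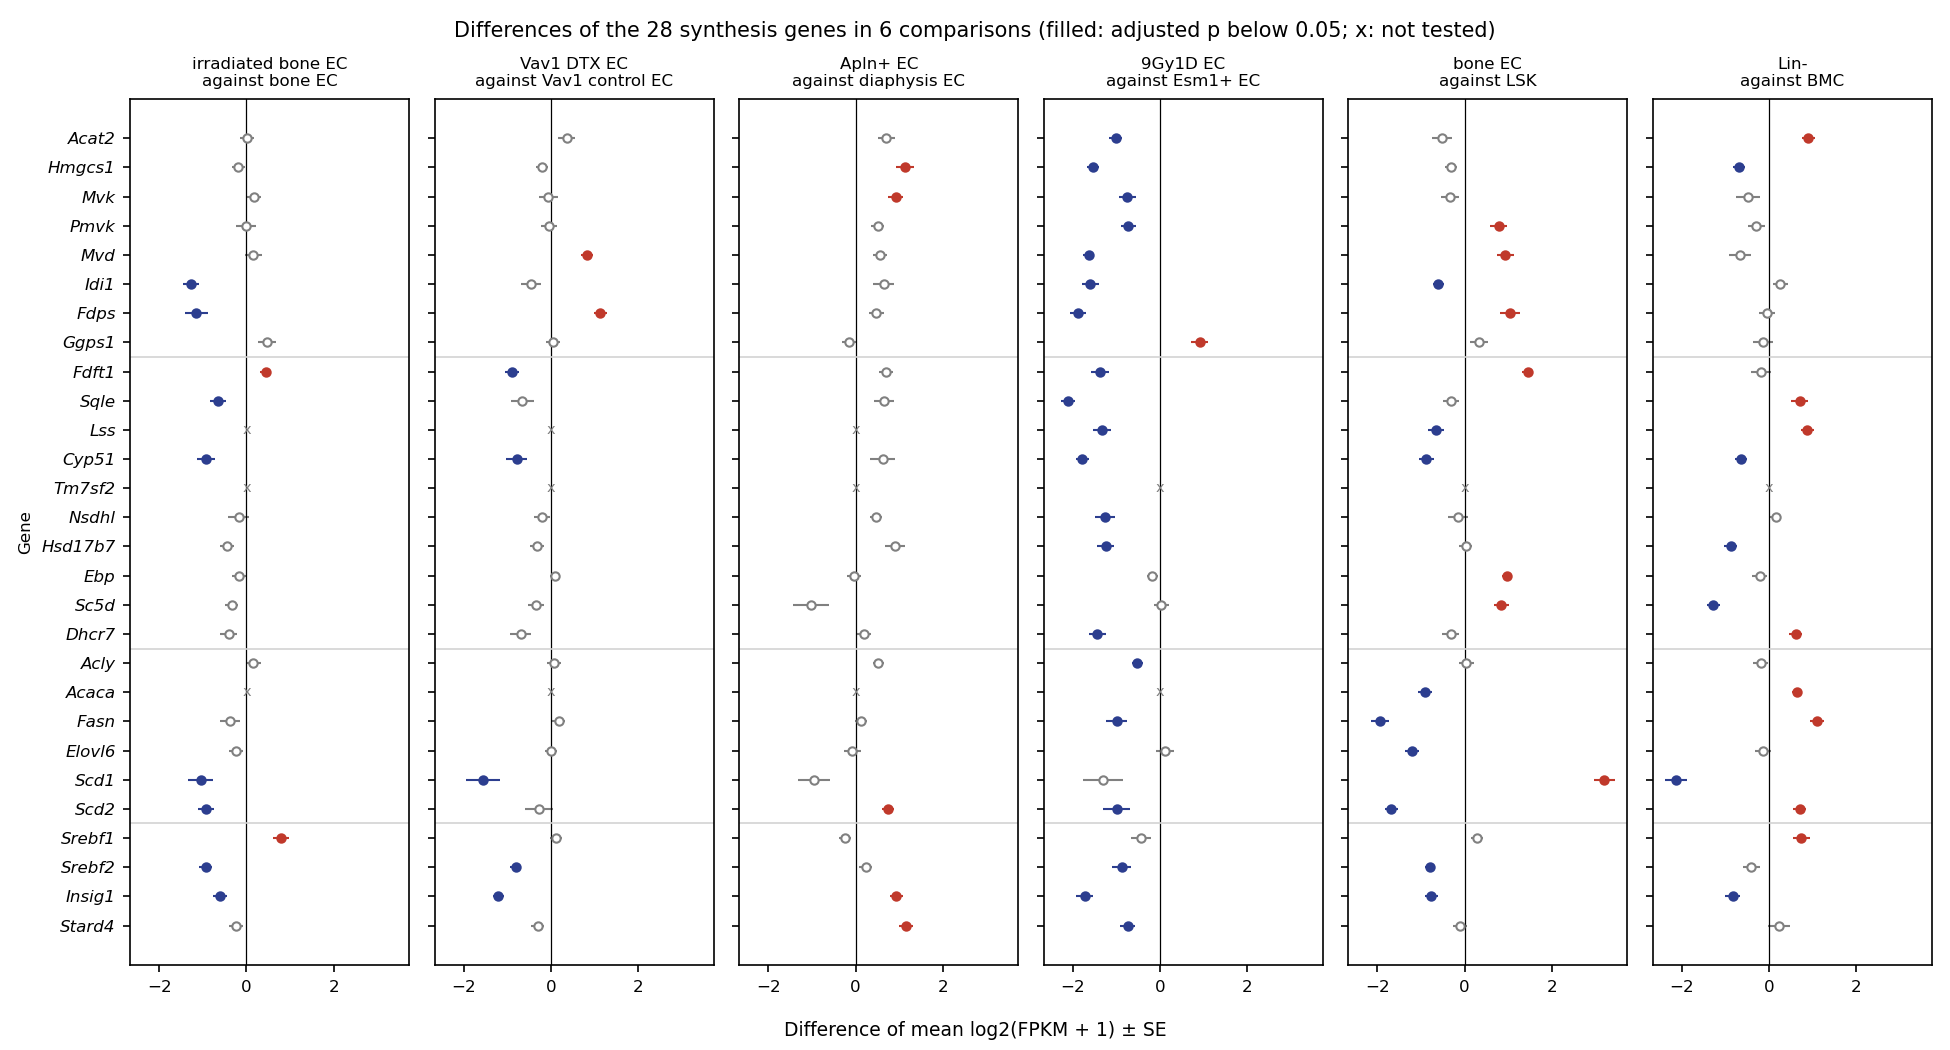
Difference of mean log2(FPKM + 1) with its SE (x axis) for each of the 28 genes (rows) in the 6 comparisons (panels); filled points have an adjusted p below 0.05, red for higher and blue for lower in the group named first, and x marks genes not tested. In 9Gy1D EC against Esm1+ EC 20 genes lie filled on the left, and in Apln+ EC against diaphysis EC 5 lie filled on the right.

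Vav1 DTX EC were set against Vav1 control EC. In Vav1 DTX EC, 5 members fell (Fdft1, Cyp51, Scd1, Srebf2 and Insig1) and 2 rose (Mvd and Fdps), among 25 tested. Of all 11664 genes tested 26.3% were called, 15% lower and 11.3% higher, so the 7 calls are near the share for all genes. Vav1 DTX libraries lay wholly above control for 4 members and wholly below for 9, where 46.3% of all genes did not overlap. The median difference of the members was -0.21, against 0.03 for all genes. TPM scaling moved the median of all genes to 0.24 and left 4 members lower and 2 higher, and 67.3% of all calls were then higher, against 43% without it. Without Vav1 DTX replicate 2, 6 members were lower and 2 higher, Stard4 being added (difference -0.42, adjusted p = 0.041), while 41.6% of all genes were called, against 26.3% with it. The 18 members not called had differences between -0.7 (Dhcr7) and 0.36 (Acat2).

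In the isoprenoid arm 2 of 8 genes rose, and in the sterol arm 2 of 8 tested genes fell. Fdps had 135, 100 and 136 FPKM in Vav1 DTX EC, against 55.7, 55.9 and 54.6 FPKM in Vav1 control EC, a difference of 1.13 ± 0.15 (SE, adjusted p = 0.0019). Mvd, the mevalonate diphosphate decarboxylase, had 15.9, 21 and 18.1 FPKM in Vav1 DTX EC, against 10.4, 10.3 and 8.92 FPKM in Vav1 control EC, a difference of 0.82 ± 0.14 (SE, adjusted p = 0.0068). Fdps uses the product of the isoprenoid steps to make farnesyl diphosphate, and Fdft1 is the gene that takes it on to squalene. Fdft1 had 5.12, 5.4 and 6.76 FPKM in Vav1 DTX EC, against 10.7, 13.5 and 10.4 FPKM in Vav1 control EC, a difference of -0.89 ± 0.16 (SE, adjusted p = 0.0077). The overlapping Ctsb was at 496 ± 162 FPKM in Vav1 DTX EC and 413 ± 9.07 FPKM in Vav1 control EC (SD, n = 3 each), and its part was not tested. Further down, Cyp51 had 5.07, 2.5 and 4.94 FPKM in Vav1 DTX EC, against 8.62, 6.99 and 7.43 FPKM in Vav1 control EC (difference -0.79 ± 0.24, SE, adjusted p = 0.048), a call that was lost in 9 of 15 alternatives, with adjusted p between 0.018 and 0.17.

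Insig1 had 5, 4.22 and 3.95 FPKM in Vav1 DTX EC, against 11.5, 11.2 and 11.6 FPKM in Vav1 control EC, a difference of -1.21 ± 0.13 (SE, adjusted p = 0.00098) and the lowest mean of Insig1 in any group. Srebf2 had 14.2, 11.1 and 12.7 FPKM in Vav1 DTX EC, against 24.4, 22.3 and 22 FPKM in Vav1 control EC, a difference of -0.81 ± 0.13 (SE, adjusted p = 0.005). No Vav1 DTX library of either gene reached a control library. Srebf1 was not called, at 13.1 ± 1.86 FPKM in Vav1 DTX EC and 12 ± 0.578 FPKM in Vav1 control EC (SD, n = 3 each). Scd1 had 3.29, 2.61 and 0.444 FPKM in Vav1 DTX EC, against 8.52, 7.48 and 6.32 FPKM in Vav1 control EC (difference -1.57 ± 0.39, SE, adjusted p = 0.026). This call was lost in 5 of 14 alternatives, among them each that left out 1 of the 3 control libraries. Scd2 was not called, at 8.07 ± 3.6 FPKM in Vav1 DTX EC and 9.32 ± 0.954 FPKM in Vav1 control EC (SD, n = 3 each).

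The 6 erythroid genes summed to 992 to 1960 FPKM in Vav1 DTX EC, against 26800 to 50000 FPKM in Vav1 control EC, and the 6 B lymphoid genes to 21.5 to 26.0 FPKM in Vav1 DTX EC, against 437 to 577 FPKM in Vav1 control EC. The neutrophil genes summed to 34800 to 82300 FPKM in Vav1 DTX EC, against 85000 to 94500 FPKM in Vav1 control EC. None of these genes was at 0 in every library of a group, and their part in the result was not tested. Of the sterol transport and sensing genes, 4 fell among 14 tested of 15, such as Npc2, a lysosomal cholesterol carrier (58.8 ± 9.35 FPKM in Vav1 DTX EC and 89 ± 1.07 FPKM in Vav1 control EC, SD, n = 3 each). Of the other fatty acid genes, 3 rose and 2 fell among 11 tested of 14. Elovl5 rose by 0.68, and Acss2, which makes acetyl-CoA from acetate, fell by 0.59.

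9Gy1D EC were set against Esm1+ EC of the same table. Of 26 members tested, 20 fell in 9Gy1D EC and 1 rose, where 43.7% of all 11746 genes were called, 23.1% lower and 20.6% higher. Every called member had groups that did not overlap, as had 57.3% of all genes. The median difference of the members was -1.13, against 0 for all genes. Every gene of the mevalonate and isoprenoid arm was called, 7 lower and Ggps1 higher. In the sterol arm 7 of 9 tested genes fell, and Ebp and Sc5d did not pass the test. Among the 7, Lss was under 1 FPKM in each 9Gy1D library and passed the filter only through Esm1+ EC, where it was high. In the fatty acid arm 3 of 5 tested genes fell (Acly, Fasn and Scd2), and among the regulators and the carrier 3 of 4 (Srebf2, Insig1 and Stard4). TPM scaling, with the median of all genes at 0.25, left 15 lower and 1 higher, and 64.7% of all calls were then higher, against 47.2% without it. Both groups are labelled as Tomato+/GFP+ marrow cells. The groups differ in genotype, irradiation and tamoxifen as well as in the cells sorted, which cannot be told apart.

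**Figure D3:**
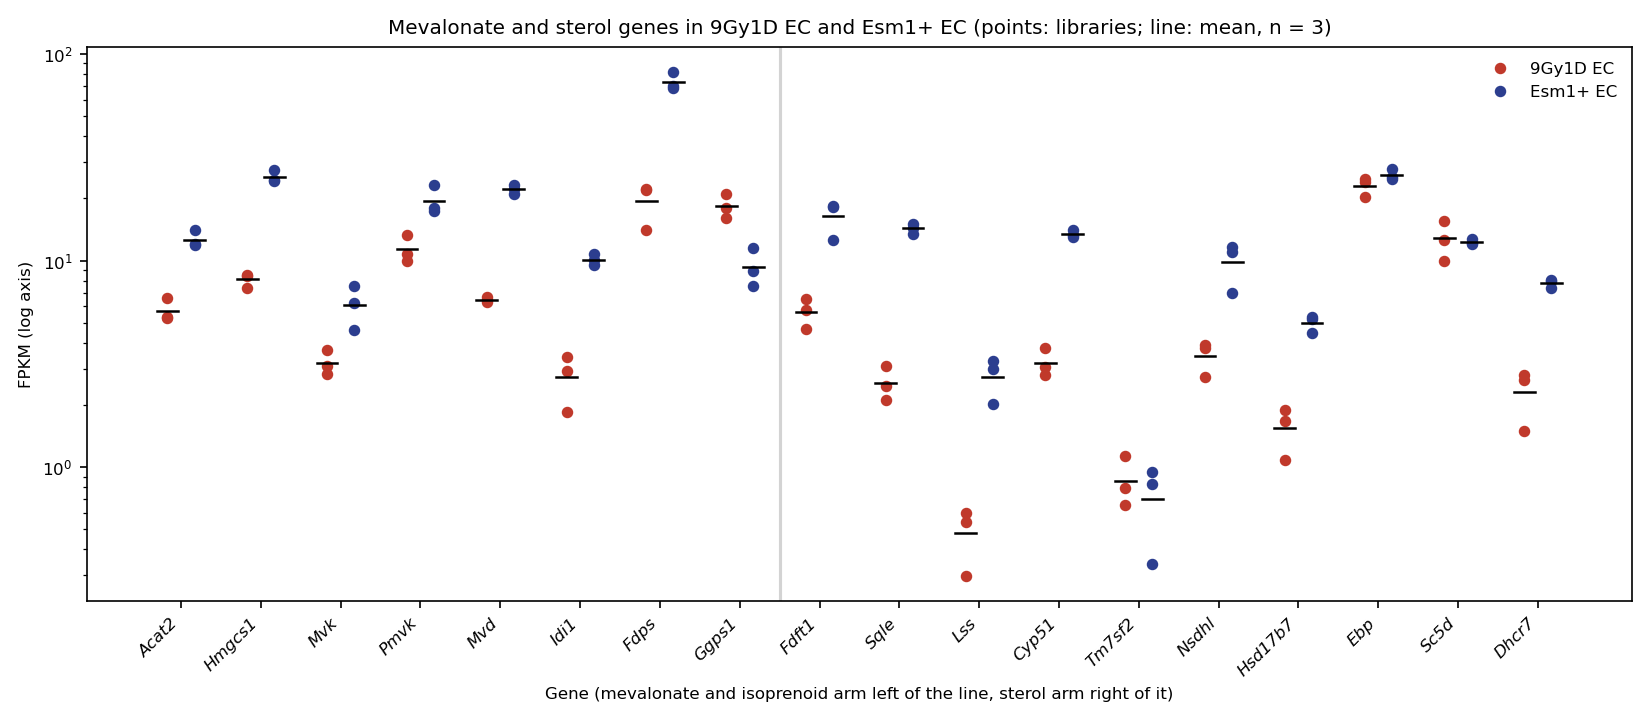
FPKM (log axis) of the 8 mevalonate and isoprenoid genes and the 10 sterol genes, in pathway order from left to right, in each of 3 libraries of 9Gy1D EC (red) and Esm1+ EC (blue); lines are means. The 9Gy1D libraries lie below the Esm1+ libraries for 14 of the 18 genes, above them for Ggps1, and overlap them for Tm7sf2, Ebp and Sc5d.

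The sequence of Hmgcs1 above holds the sterol element, whose part in the level of Hmgcs1 was not tested. Along the mevalonate arm, Hmgcs1 averaged 8.1 ± 0.666 FPKM in 9Gy1D EC and 25.4 ± 1.84 FPKM in Esm1+ EC (SD, n = 3 each; difference -1.54). Mvd had 6.63, 6.27 and 6.45 FPKM in 9Gy1D EC, against 23.3, 22.2 and 21.1 FPKM in Esm1+ EC, a difference of -1.64 ± 0.12 (SE, adjusted p = 0.00015). Fdps had 22, 22.3 and 14.1 FPKM in 9Gy1D EC, against 70.1, 68.1 and 81.6 FPKM in Esm1+ EC, a difference of -1.88 ± 0.19 (SE, adjusted p = 0.00047). The libraries of each group lay close together and far from those of the other, though Esm1+ replicates 1 and 2 may not be separate samples. Ggps1, which leads isoprenoids away from sterols, was the exception, with 16, 17.9 and 21.1 FPKM in 9Gy1D EC, against 8.93, 7.56 and 11.5 FPKM in Esm1+ EC (difference 0.91 ± 0.19, SE, adjusted p = 0.0069). Its neighbour Arid4b, whose exons overlap those of Ggps1, was at 4.36 ± 0.335 FPKM in 9Gy1D EC and 4.45 ± 0.598 FPKM in Esm1+ EC (SD, n = 3 each). The part of Arid4b in the Ggps1 value was not tested.

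The largest difference of the module in this comparison was that of Sqle, which had 3.1, 2.46 and 2.11 FPKM in 9Gy1D EC, against 15, 14.4 and 13.5 FPKM in Esm1+ EC (difference -2.12 ± 0.16, SE, adjusted p = 0.00016). Cyp51 had 3.77, 3.04 and 2.8 FPKM in 9Gy1D EC, against 14, 13.3 and 13 FPKM in Esm1+ EC, a difference of -1.79 ± 0.15 (SE, adjusted p = 0.00024). Both genes fell to well under the level of any Esm1+ library. Dhcr7, the last reductase before cholesterol, averaged 2.31 ± 0.705 FPKM in 9Gy1D EC and 7.8 ± 0.416 FPKM in Esm1+ EC (SD, n = 3 each; difference -1.44). Fdft1 fell by 1.38. The overlapping Ctsb was higher in 9Gy1D EC, at 811 ± 153 FPKM, against 421 ± 46.3 FPKM in Esm1+ EC (SD, n = 3 each). The part of Ctsb in the Fdft1 value was not tested. Ebp, a sterol isomerase, was at 23 ± 2.46 FPKM in 9Gy1D EC and 26 ± 1.58 FPKM in Esm1+ EC, and Sc5d, a sterol desaturase, at 12.8 ± 2.82 FPKM in 9Gy1D EC and 12.3 ± 0.335 FPKM in Esm1+ EC (SD, n = 3 each).

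Insig1 had 4.65, 4.89 and 7.83 FPKM in 9Gy1D EC, against 19.2, 21.2 and 22.8 FPKM in Esm1+ EC, a difference of -1.73 ± 0.2 (SE, adjusted p = 0.00077). Srebf2 averaged 4.81 ± 1.22 FPKM in 9Gy1D EC and 9.62 ± 1.65 FPKM in Esm1+ EC (SD, n = 3 each; difference -0.88), its lowest mean of the 11 groups being that of 9Gy1D EC. The called members not described with per-library values fell by between 0.52 (Acly) and 1.6 (Idi1), Hmgcs1 at 1.54 and Dhcr7 at 1.44 among them. Stard4, a carrier of cholesterol between membranes, averaged 2.28 FPKM in 9Gy1D EC, against 4.48 FPKM in Esm1+ EC. Among the fatty acid genes, Fasn averaged 0.985 ± 0.567 FPKM in 9Gy1D EC and 2.9 ± 0.573 FPKM in Esm1+ EC (SD, n = 3 each; difference -1, adjusted p = 0.014). Scd1 had 0.64, 1.11 and 4.3 FPKM in 9Gy1D EC, against 6.68, 7.49 and 3.3 FPKM in Esm1+ EC, groups that overlap, and was not called (adjusted p = 0.056). With Esm1+ replicates 1 and 2 averaged, 15 of the 21 calls were left, 14 lower and 1 higher. The share of all genes called was then 30.6%, against 43.7% with the replicates apart.

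Without Esm1+ replicate 1 or without replicate 2, 14 calls remained in each case, all among the 21, with 13 lower, and 30.7% and 30.4% of all genes were called in that order. The 6 proliferation genes summed to 24.6 to 60.2 FPKM in 9Gy1D EC, against 160 to 231 FPKM in Esm1+ EC, and the neutrophil genes to 27700 to 48900 FPKM in 9Gy1D EC, against 77800 to 84700 FPKM in Esm1+ EC. The 5 osteoblast and cartilage genes summed to 20.3 to 368 FPKM in 9Gy1D EC, with Acan at 0 in every library, against 1520 to 2120 FPKM in Esm1+ EC. Pan-endothelial genes summed to 3480 to 5030 FPKM in 9Gy1D EC, against 937 to 1790 FPKM in Esm1+ EC, and monocyte and macrophage genes to 875 to 1050 FPKM in 9Gy1D EC, against 258 to 362 FPKM in Esm1+ EC. The part of these lists in the result was not tested.

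Of 4 other sterol genes outside the module, all were called lower in 9Gy1D EC, as were 3 in irradiated bone EC, with 1 higher in Apln+ EC. In bone EC against LSK 1 was higher and 1 lower, and in Lin- 2 were higher and 2 lower. In Vav1 DTX EC limma called 0 of the 4, with 2 at an unadjusted p below 0.05, and voom called 1. Of all genes tested, 43.7% were called in 9Gy1D EC, 41.9% in irradiated bone EC and 7.49% in Apln+ EC. The share was 60.1% in bone EC against LSK and 57.5% in Lin-. In Vav1 DTX EC it was 26.3% with limma and 25.5% with voom, and limma gave 39.6% an unadjusted p below 0.05. Of the 4 sterol genes, those that fell in 9Gy1D EC included Msmo1 (Sc4mol in the tables), a sterol demethylation enzyme. Msmo1 averaged 6.39 ± 0.456 FPKM in 9Gy1D EC and 14.3 ± 0.798 FPKM in Esm1+ EC (SD, n = 3 each, difference -1.05). Of the sterol transport and sensing genes, 6 rose and 2 fell among 14 tested of 15. Nr1h3 averaged 12 ± 1.75 FPKM in 9Gy1D EC and 2.26 ± 0.62 FPKM in Esm1+ EC (SD, n = 3 each; difference 2.01), and Nr1h2, the gene of LXR beta, fell by 0.73. Of the other fatty acid genes, 3 rose and 6 fell among 13 tested of 14. Tecr, the last reductase of fatty acid elongation, averaged 123 ± 25.3 FPKM in 9Gy1D EC and 329 ± 23.2 FPKM in Esm1+ EC, while Elovl5 averaged 67.5 ± 3.74 FPKM in 9Gy1D EC and 25.4 ± 2.61 FPKM in Esm1+ EC (SD, n = 3 each).

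Apln+ EC were set against diaphysis EC. Of 25 members tested, 5 rose in Apln+ EC and 0 fell: Hmgcs1, Mvk, Scd2, Insig1 and Stard4. In this comparison 7.49% of all 11889 genes were called, 2.84% higher and 4.64% lower. The median difference of the members was 0.52, against 0.04 for all genes. In 14 members every Apln+ library lay above every diaphysis library and in 1, Srebf1, below, while groups did not overlap for 27.8% of all genes tested. With limma at an unadjusted p below 0.05, 15 members were higher and 2 lower (Sc5d and Scd1), where 20.8% of all genes passed that threshold, 9.85% of all genes as higher, and voom on the recovered reads also called 5 members higher and 0 lower, with the same 15 and 2 unadjusted. The 20 members not called had differences between -1.03 (Sc5d) and 0.9 (Hsd17b7). Genotype, tamoxifen and bone region differ together between the 2 groups and cannot be told apart.

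Stard4 had 8.43, 8.28 and 6.7 FPKM in Apln+ EC, against 2.71, 2.73 and 3.41 FPKM in diaphysis EC, a difference of 1.16 ± 0.16 (SE, adjusted p = 0.01). Hmgcs1 had 28, 29.2 and 21.3 FPKM in Apln+ EC, against 12.3, 13.3 and 8.8 FPKM in diaphysis EC, a difference of 1.13 ± 0.21 (SE, adjusted p = 0.027). Insig1 had 25.4, 26.8 and 25 FPKM in Apln+ EC, against 14.3, 13.5 and 11.3 FPKM in diaphysis EC, a difference of 0.94 ± 0.14 (SE, adjusted p = 0.014). For each of these genes the groups lay apart. Mvk, the mevalonate kinase, had 8.19, 12.5 and 9.99 FPKM in Apln+ EC, against 4.76, 5.08 and 4.73 FPKM in diaphysis EC (difference 0.92 ± 0.18, SE, adjusted p = 0.032). Scd2 had 8.97, 10.4 and 9.04 FPKM in Apln+ EC, against 5.37, 5.21 and 5.15 FPKM in diaphysis EC (difference 0.74 ± 0.14, SE, adjusted p = 0.027).

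These calls depend on single libraries. Without Apln+ replicate 1, which stood apart, 14 members were called, 12 higher and 2 lower, but the share of all genes called was then also larger, at 33.3%, against 7.49% with it: the 5 above with Acat2, Acly, Fdft1, Hsd17b7, Mvd, Nsdhl and Pmvk were higher, and Sc5d (difference -1.5, adjusted p = 0.00098) and Scd1 (difference -1.29, adjusted p = 0.0085) were lower. Without Apln+ replicate 2 limma called no member and 2.69% of all genes. At an unadjusted p below 0.05, 12 members were then higher, as were 6.09% of all genes. Without diaphysis replicate 1, 2 or 3 limma again called no member, and 1.58%, 1.44% and 1.3% of all genes. At the unadjusted p, 11, 13 and 12 members were higher, as were 6.23%, 6.33% and 7.06% of all genes in that order. Without Apln+ replicate 3, 2 members were called, Hmgcs1 and Stard4, and 4.17% of all genes. TPM scaling, which moved the median of all genes to -0.1, left 1 call, Stard4, which was higher, and 27.2% of all calls were then higher, against 38% without it. Neutrophil genes summed to 42200 to 142000 FPKM in Apln+ EC, with the highest value in replicate 1, against 37300 to 48800 FPKM in diaphysis EC. Pan-endothelial genes summed to 1160 to 5480 FPKM in Apln+ EC, lowest in replicate 1, against 2020 to 3080 FPKM in diaphysis EC, and monocyte and macrophage genes to 167 to 312 FPKM in Apln+ EC, against 755 to 857 FPKM in diaphysis EC. The 6 genes of adipocytes and adipocytic stroma summed to 28.1 to 103 FPKM in Apln+ EC, against 464 to 485 FPKM in diaphysis EC, with Plin1 at 0 in every library of both groups and Cidec at 0 in diaphysis EC. The part of these lists in the result was not tested. Outside the module, Ch25h, a hydroxylase that makes an oxysterol, averaged 7.56 ± 4.28 FPKM in Apln+ EC and 0.263 ± 0.127 FPKM in diaphysis EC (SD, n = 3 each). Mylip, a ubiquitin ligase, averaged 12.2 ± 1.17 FPKM in Apln+ EC and 45.5 ± 9.51 FPKM in diaphysis EC (SD, n = 3 each). In all, 1 of 14 tested genes of sterol transport and sensing rose and 4 fell.

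The 4 endothelial comparisons share no library, so their calls can be set side by side. Cyp51, Insig1 and Srebf2 were called lower in 9Gy1D EC, in Vav1 DTX EC and after irradiation in bone EC, each against the group it was set beside. Of the 8 members that fell in irradiated bone EC, 7 (87.5%) also fell in 9Gy1D EC, which is 35% of the 20 that fell there. All 5 members that rose in Apln+ EC fell in 9Gy1D EC, 25% of the 20. Since 76.9% of all members tested fell in 9Gy1D EC, both overlaps are near what members in general showed there. Fdps went both ways, lower in irradiated bone EC and 9Gy1D EC and higher in Vav1 DTX EC, and Fdft1 was higher in irradiated bone EC but lower in Vav1 DTX EC and 9Gy1D EC. The levels of Insig1, Srebf2, Cyp51 and Fdps in the 8 groups are plotted by library. Of the 28 members, Insig1 was the only 1 called in all 6 comparisons, and Cyp51 and Scd2 were called in 5. How many of all genes were called as often, or were lower together with Cyp51, Insig1 and Srebf2, was not counted. Each comparison called between 7.49% and 60.1% of all genes tested. The Insig1 call was lost in 5 of 16 alternatives in irradiated bone EC and in 6 of 15 in Apln+ EC. The differences between comparisons were not themselves tested.

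**Figure D4:**
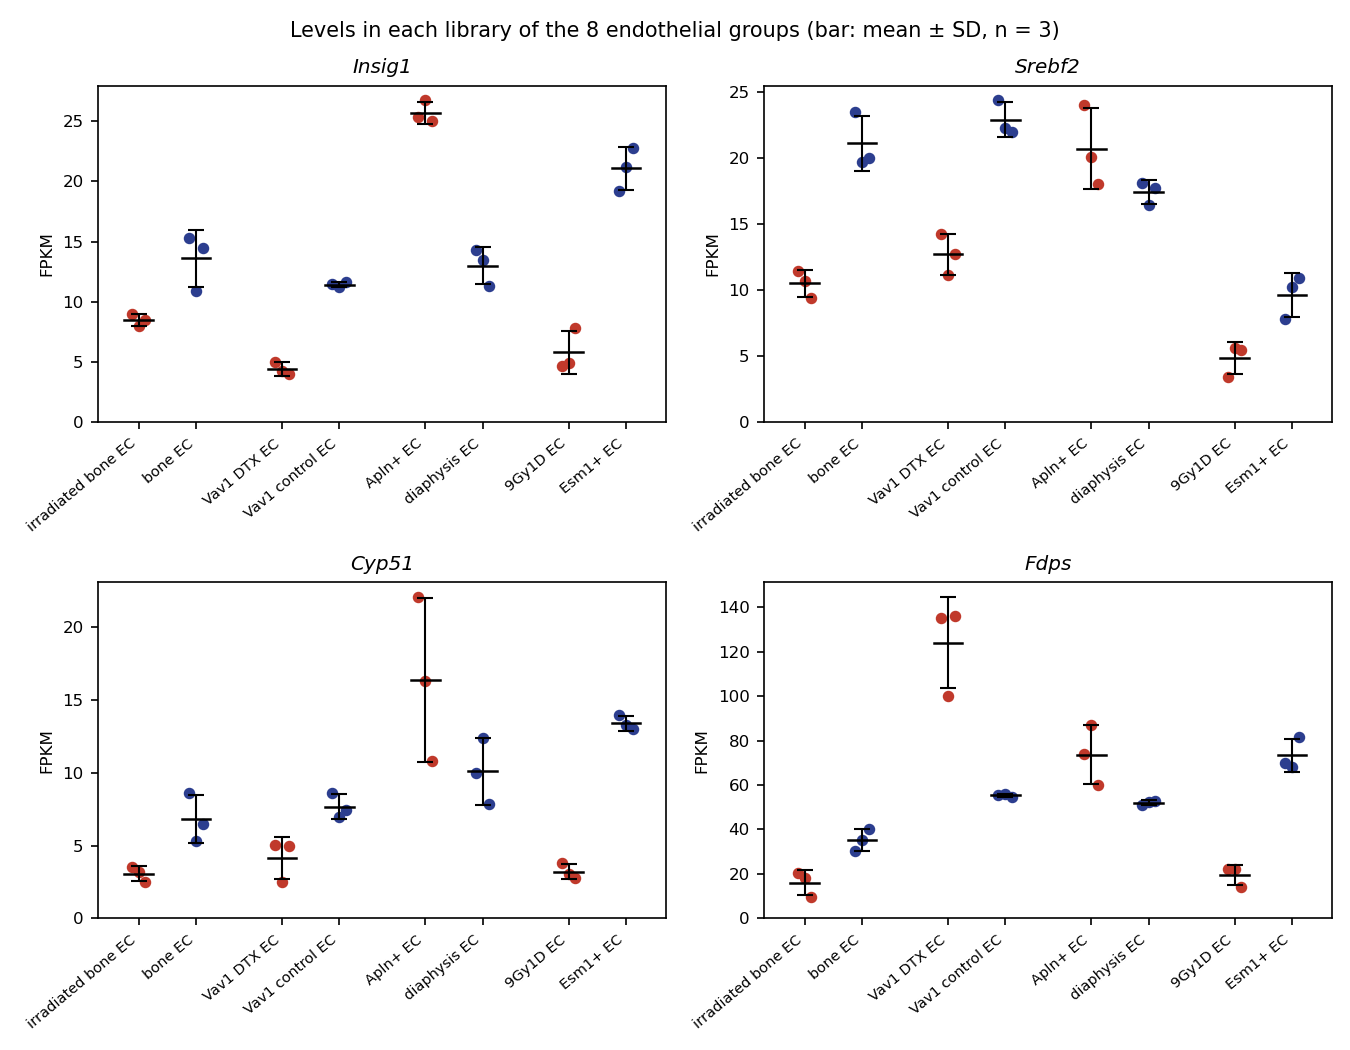
FPKM of Insig1, Srebf2, Cyp51 and Fdps in each library (points) of the 8 endothelial groups, with mean ± SD of 3 libraries; red marks the group named first in each of the 4 comparisons and blue the group it was set against. Fdps reaches 135, 100 and 136 FPKM in Vav1 DTX EC but at most 22.3 FPKM in irradiated bone EC and 9Gy1D EC.

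Bone EC were set against LSK, which were made with the same kit; the bone EC libraries are those used above. Of 27 members tested, 7 were higher in bone EC and 9 lower, where 60.1% of all 14321 genes were called, 29.5% higher and 30.6% lower. Groups did not overlap for 18 members, 8 higher and 10 lower, against 66.5% of all genes. The 16 calls are close to the share for all genes, and the median difference was -0.31, against -0.05 for all genes. The split depends on the scaling: with TPM the median of all genes was -0.91, 17.6% of all calls were higher, against 49% without it, and 2 members were higher and 17 lower, with 11 calls in common. In both scalings Fdft1 was called higher in bone EC. Scd1 was also called higher in both, but it passed the filter only through bone EC, so its call supports nothing further.

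**Figure D5:**
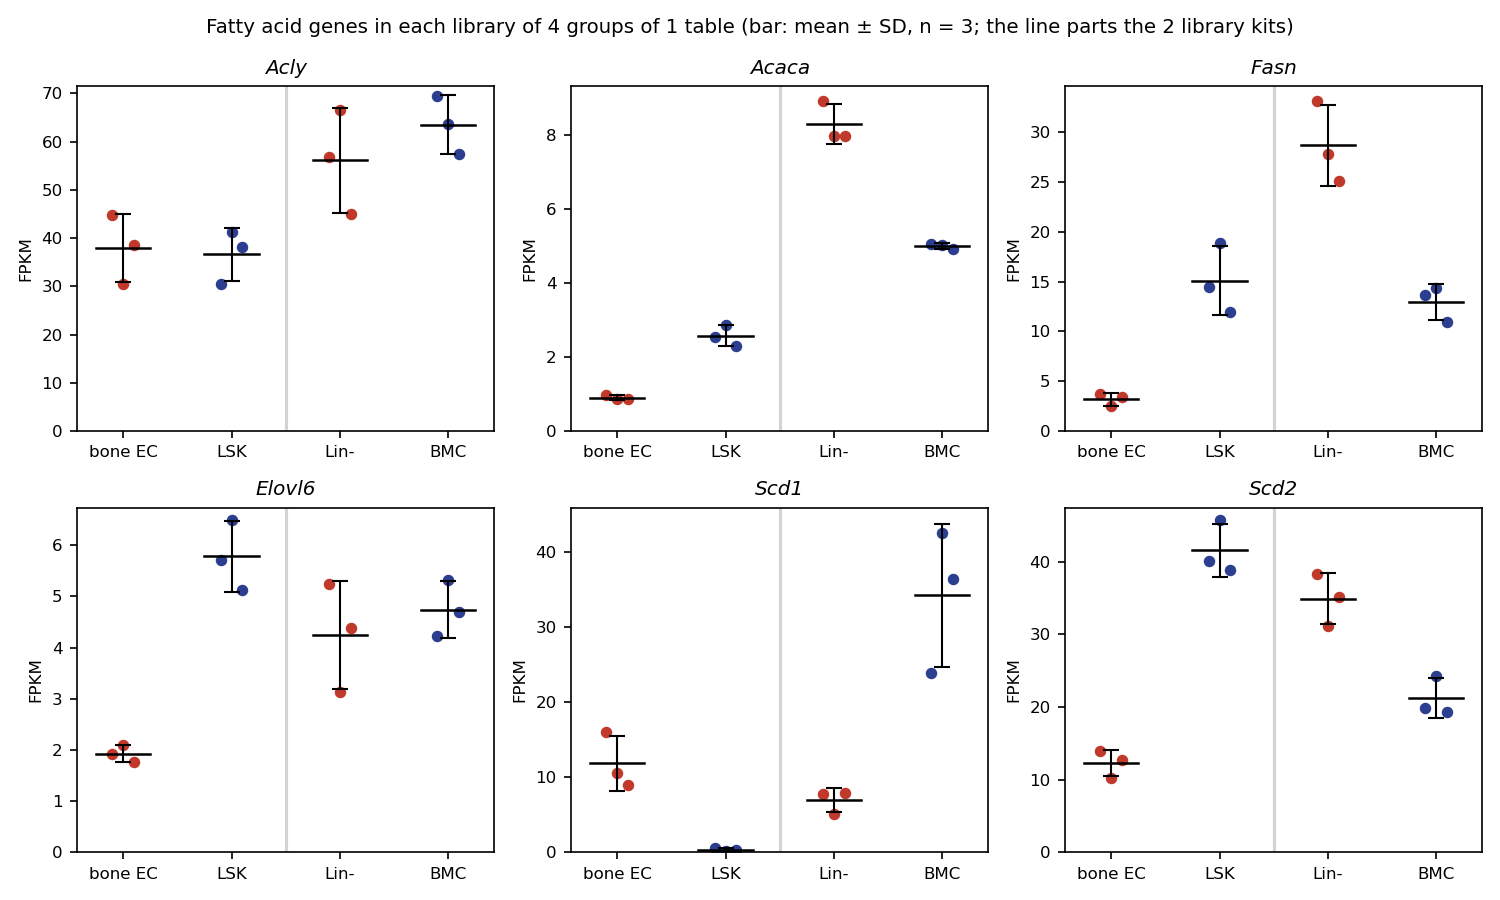
FPKM of the 6 fatty acid genes in each library (points) of bone EC, LSK, Lin- and BMC, with mean ± SD of 3 libraries; red marks bone EC and Lin-, blue LSK and BMC, and the grey line parts groups made with different library kits. Scd1 is high in bone EC and BMC and Scd2 in LSK and Lin-.

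The desaturase genes differed in level in opposite ways between these groups. Scd1 had 16, 10.6 and 9 FPKM in bone EC, against 0.632, 0.224 and 0.256 FPKM in LSK, a difference of 3.21 ± 0.24 (SE, adjusted p = 1.5e-05). Scd2 had 13.9, 10.3 and 12.7 FPKM in bone EC, against 40.1, 45.7 and 38.8 FPKM in LSK, a difference of -1.68 ± 0.14 (SE, adjusted p = 3.1e-05). The LSK value of Scd1 rests on 13 reads. Fasn had 3.72, 2.46 and 3.36 FPKM in bone EC, against 14.5, 18.9 and 11.9 FPKM in LSK (difference -1.94 ± 0.2, SE, adjusted p = 1e-04). Elovl6, which lengthens palmitate, had 1.93, 2.09 and 1.76 FPKM in bone EC, against 5.72, 6.5 and 5.12 FPKM in LSK (difference -1.21 ± 0.16, SE, adjusted p = 0.00033). Acaca averaged 0.897 FPKM in bone EC, against 2.58 FPKM in LSK, and Lss was also under 1 FPKM in each bone EC library. Both genes, and Scd1 in the other direction, passed the filter only through the group where they were high, so their calls support nothing further.

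Several sterol genes went the other way. Fdft1 had 15.4, 16.2 and 18 FPKM in bone EC, against 6.11, 5.18 and 5.04 FPKM in LSK, a difference of 1.45 ± 0.13 (SE, adjusted p = 5.6e-05). The overlapping Ctsb averaged 388 ± 50.5 FPKM in bone EC and 33.1 ± 1.82 FPKM in LSK (SD, n = 3 each), and its part in the Fdft1 value was not tested. Fdps had 30.4, 35.3 and 40 FPKM in bone EC, against 12, 23.3 and 15.9 FPKM in LSK, a difference of 1.04 ± 0.23 (SE, adjusted p = 0.0044). Ebp had 21.8, 21.9 and 24.3 FPKM in bone EC, against 10.2, 12 and 11.1 FPKM in LSK, a difference of 0.97 ± 0.12 (SE, adjusted p = 0.00025). For these 3 genes no bone EC library reached down to an LSK library. Mvd had 5.9, 5.94 and 6.1 FPKM in bone EC, against 1.74, 3.08 and 3.27 FPKM in LSK (difference 0.94 ± 0.2, SE, adjusted p = 0.004). With TPM scaling Fdps, Ebp, Mvd, Pmvk and Sc5d were no longer called. Cyp51 and Srebf2 were lower in bone EC: Cyp51 had 8.61, 5.34 and 6.49 FPKM in bone EC, against 13.9, 13.3 and 12.5 FPKM in LSK, and Srebf2 had 23.5, 19.7 and 20 FPKM in bone EC, against 35.3, 37.4 and 38.3 FPKM in LSK (differences -0.88 ± 0.17 and -0.79 ± 0.12, SE; adjusted p = 0.0026 and 0.00064). Neutrophil genes summed to 46600 to 47300 FPKM in bone EC, against 303 to 350 FPKM in LSK, and their part in these values was not tested. Of the sterol transport and sensing genes, 7 were higher and 1 lower in bone EC among 13 tested of 15, with Mylip at 41.9 ± 5.34 FPKM in bone EC and 12.3 ± 1.34 FPKM in LSK (SD, n = 3 each).

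Lin- cells were set against BMC, both made from total RNA. Of 27 members tested, 8 were higher in Lin- and 6 lower, where 57.5% of all 12428 genes were called, 29.1% higher and 28.4% lower, so the 14 calls are close to the share for all genes. Groups did not overlap for 16 members, 9 higher and 7 lower, against 66.1% of all genes. The median difference was -0.14, against 0.03 for all genes. With TPM, which moved the median of all genes to 0.24, 9 were higher and 5 lower, and 60.9% of all calls were higher, against 50.6% without it. Without Lin- replicate 3, 7 were higher and 8 lower, and 66.1% of all genes were called. The 13 members not called had differences between -0.67 (Mvd) and 0.26 (Idi1).

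The fatty acid genes again held calls in both directions, Acaca, Fasn and Scd2 being higher and Scd1 lower. Fasn had 33.1, 27.8 and 25.1 FPKM in Lin-, against 13.6, 14.3 and 10.9 FPKM in BMC, a difference of 1.09 ± 0.16 (SE, adjusted p = 0.0012). Scd2 had 38.3, 31.2 and 35.1 FPKM in Lin-, against 19.9, 24.3 and 19.3 FPKM in BMC, a difference of 0.7 ± 0.14 (SE, adjusted p = 0.0055). Scd1 had 7.84, 5.1 and 7.94 FPKM in Lin-, against 23.9, 42.6 and 36.5 FPKM in BMC, a difference of -2.13 ± 0.25 (SE, adjusted p = 0.00052). Scd1 and Scd2 thus moved in opposite directions. Srebf1 had 24.5, 26.2 and 16.8 FPKM in Lin-, against 11.6, 14.1 and 12.9 FPKM in BMC (difference 0.74 ± 0.19, SE, adjusted p = 0.013).

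In the sterol branch, Acat2, which joins acetyl-CoA units for the mevalonate arm, had 7.54, 9.57 and 6.78 FPKM in Lin-, against 3.89, 3.6 and 3.78 FPKM in BMC (difference 0.9 ± 0.15, SE, adjusted p = 0.0023). Sqle had 5.65, 5.04 and 6.73 FPKM in Lin-, against 4.11, 3.27 and 2.29 FPKM in BMC (difference 0.7 ± 0.2, SE, adjusted p = 0.021). Other members of the branch were lower in Lin-. Sc5d had 4.59, 5.12 and 4.08 FPKM in Lin-, against 14.5, 12.3 and 11.1 FPKM in BMC, a difference of -1.28 ± 0.15 (SE, adjusted p = 0.00045). Hmgcs1 had 9.51, 8.43 and 10.4 FPKM in Lin-, against 15.8, 17.8 and 14 FPKM in BMC, a difference of -0.69 ± 0.14 (SE, adjusted p = 0.0055). The branch therefore held calls in both directions, with 3 sterol arm genes higher and 3 lower, though Lss, among the higher, passed the filter only through Lin-. Cyp51 had 7.18, 7.17 and 6.79 FPKM in Lin-, against 12.3, 13 and 9.6 FPKM in BMC (difference -0.64 ± 0.14, SE, adjusted p = 0.008). Insig1 had 16.6, 18.8 and 16.8 FPKM in Lin-, against 31.5, 39.4 and 25.7 FPKM in BMC (difference -0.84 ± 0.17, SE, adjusted p = 0.0057).

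Neutrophil genes summed to 39.6 to 223 FPKM in Lin-, against 83400 to 111000 FPKM in BMC, and their part in the members' differences was not tested. Erythroid genes summed to 1280 to 60200 FPKM in Lin-, highest in replicate 3, and to 10400 to 11400 FPKM in BMC. The 5 osteoblast and cartilage genes summed to 971 to 3380 FPKM in Lin- and 1.44 to 12.8 FPKM in BMC. The 6 adipocyte and adipocytic stroma genes summed to 57.1 to 292 FPKM in Lin- and 2.42 to 4.72 FPKM in BMC. Plin1 and Cidec were at 0 in BMC. The 4 megakaryocyte genes summed to 671 to 1140 FPKM in Lin- and 12.3 to 25.5 FPKM in BMC. B lymphoid and monocyte and macrophage genes summed lower in Lin-. The part of these lists was not tested. Of the sterol transport and sensing genes, 1 was higher and 7 lower in Lin- among 13 tested of 15. Soat1 averaged 5.04 ± 1.73 FPKM in Lin- and 34.7 ± 6.05 FPKM in BMC, and Mylip 12.3 ± 2.8 FPKM in Lin- and 43.8 ± 6.33 FPKM in BMC (SD, n = 3 each). Of the other fatty acid genes, 6 were higher and 3 lower among 11 tested of 14.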

How the data were processed

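RNA was sequenced from 33 libraries in 4 tables. Per the labels' protocols, BMC and Lin- libraries were made with a stranded total RNA kit and all others with SMART-Seq v4 and Nextera XT. The submitters' processing notes list DESeq2 1.18.1, HTSeq 0.6.1, TopHat2 2.1.1, bcl2fastq 2.19.1.403 and, as genome, mm10, with no roles. The strand setting of the counting is not given in the sources used here. The deposited values are FPKM, per gene length and library. Every gene's FPKM were whole multiples of 1 read (100% of 38899 genes, within 0.005 reads), so reads were recovered, and the FPKM divisor of each library was 0.969 to 1.0216 times its median-of-ratios size factor, so the values are scaled by such factors and not by total reads. Each table holds 38926 rows, and rows with names altered to dates were dropped.

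From these FPKM, limma 3.58.1 (R 4.3.3, empirical Bayes with a trend) was run on log2(FPKM + 1) of the 6 libraries of a comparison, over all genes that reached 1 FPKM in 3 or more libraries, with Benjamini-Hochberg adjustment and a threshold of 0.05. A difference on this scale understates the change of low genes. Per-library values are given for members that were called, did not overlap and averaged at least 5 FPKM in the higher group, up to 5 per direction; other members are given by mean or range, and genes outside the module by the 2 largest called differences per list and direction. Some genes this rule names are not reported here. Depth limits the precision of low genes. Alternatives changed the pseudocount, filter, scaling, model and libraries. The members, lists and tests were chosen with earlier results of these data known.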

Additional observations from a re-analysis of the deposited data

How the results depend on the processing

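Of the 73 calls of members over the 6 comparisons, each was recomputed under every alternative that tested its gene, 1123 values in all, of which 1015 kept the call, 108 lost it and 0 changed sign. Calls kept under all of them numbered 6 of 10 in irradiated bone EC, 5 of 7 in Vav1 DTX EC, 0 of 5 in Apln+ EC, 14 of 21 in 9Gy1D EC, 10 of 16 in bone EC against LSK and 10 of 14 in Lin-. Among the calls kept were Lss in 9Gy1D EC and in Lin-, and Acaca and Scd1 in bone EC against LSK. These genes passed the filter only through the group where they were high. Each was tested in only 3 of its 6 fits without 1 library, so its being kept supports nothing further. TPM scaling left 1 called member in Apln+ EC, against 5 in the reported result, with 7.92% and 7.49% of all genes called in that order. The cause was not tested. Leaving out 1 library gave 6 to 12 called members in irradiated bone EC, 5 to 8 in Vav1 DTX EC, 0 to 14 in Apln+ EC, 14 to 22 in 9Gy1D EC, 14 to 15 in bone EC against LSK and 12 to 15 in Lin-. Of all genes, these fits called 29.4 to 46.9% in irradiated bone EC and 10.1 to 41.6% in Vav1 DTX EC. The share was 1.3 to 33.3% in Apln+ EC and 30.4 to 42.8% in 9Gy1D EC. It was 49.3 to 56.4% in bone EC against LSK and 44.5 to 66.1% in Lin-. Where an arm was left with 2 libraries, the spread was pooled over both arms. The filter on a mean of at least 10 recovered reads was chosen after seeing the data and gave 11, 7, 5, 21, 16 and 15 called members in that order. With this filter 44.8%, 26.9%, 7.7%, 44.6%, 62.3% and 60.8% of all genes tested were called, in the same order.

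The numbers of the replicates were not shown to pair the libraries, since in no comparison did all 3 same-numbered pairs correlate above 0.1 (range -0.22 to 0.33). Single pairs did: Apln+ and diaphysis pairs 1 and 3 were at 0.33 and 0.3, and pair 2 at -0.06. Pairing is therefore not excluded. With the replicate block, called members numbered 7 for the irradiated bone comparison, 7 in Vav1 DTX EC, 4 in Apln+ EC, 20 in 9Gy1D EC, 16 in bone EC against LSK and 14 in Lin-, and the calls over all genes in irradiated bone EC numbered 4402, against 5463 without it. Of all genes, 33.7%, 18.2%, 7.49%, 38.5%, 57.2% and 54.6% were called with the block, in the same order. Of the 82 results that were not called, 29 changed sign in some alternative and 28 passed the threshold in one. Acly in bone EC against LSK passed it with the opposite sign under TPM. LSK libraries, with 1.55 to 1.87 M reads, have the fewest counts behind their levels.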

Other observations

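Summed over all members of a role, levels differed as follows, as a description with no test. The 8 mevalonate and isoprenoid genes summed to 197 ± 23.6 FPKM in Vav1 DTX EC and 122 ± 7.59 FPKM in Vav1 control EC, and to 196 ± 18.9 FPKM in Apln+ EC and 131 ± 7.26 FPKM in diaphysis EC (SD, n = 3 each). Fdps made up 124 FPKM of the sum in Vav1 DTX EC and 55.4 FPKM of that in Vav1 control EC. In 9Gy1D EC this arm summed to 75.4 ± 2.52 FPKM, against 179 ± 7.2 FPKM in Esm1+ EC, and the 10 sterol genes to 55.8 ± 7.08 FPKM, against 109 ± 6.34 FPKM in Esm1+ EC (SD, n = 3 each). The sterol genes summed to 66.9 ± 9.67 FPKM in Vav1 DTX EC and 82.9 ± 2.52 FPKM in Vav1 control EC (SD, n = 3 each). The 6 fatty acid genes summed to 139 ± 12.6 FPKM in Lin- and 142 ± 11.8 FPKM in BMC (SD, n = 3 each), sums that overlap although Fasn, Acaca, Scd2 and Scd1 were each called.

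The desaturase paralogs were called in opposite directions in Lin- against BMC, where Scd1 differed by -2.13 and Scd2 by 0.7. In bone EC against LSK Scd1 differed by 3.21 and Scd2 by -1.68, but Scd1 passed the filter there only through bone EC. In irradiated bone EC both fell, by 1.05 and 0.93. Lpin1, which turns phosphatidate into diacylglycerol, averaged 6.49 ± 1.41 FPKM in 9Gy1D EC and 2.21 ± 0.245 FPKM in Esm1+ EC. Gpam, which starts glycerolipid synthesis, averaged 8.67 ± 1.01 FPKM in Lin- and 20.8 ± 2.2 FPKM in BMC. Elovl1, an elongase of very long chains, averaged 40.9 ± 3.74 FPKM in bone EC and 14.8 ± 0.892 FPKM in LSK. Hsd17b12, an elongation reductase, averaged 25.8 ± 1.29 FPKM in Vav1 DTX EC and 17.5 ± 0.943 FPKM in Vav1 control EC (SD, n = 3 each in all 4 cases). These 4 genes were called over all genes tested.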
